A study of Homo sapiens with 18 samples.

Results

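Expression was followed for 5 genes whose normal place is the germ line: GCNA (NCBI Gene ID 93953), MAGEB2 (4113), SOHLH2 (54937), SYCP3 (50511) and XAGE1B (653067). They were taken by symbol from the 19068 genes listed for at least 1 of 2 human leukaemia lines, and were chosen by their own deposited log2 values over the 6 groups. For that reason their levels and differences are given below as a description, with the standard error (SE) and 95% interval of the fit and without a test. GCNA, MAGEB2 and SOHLH2 were listed for both lines. SYCP3 and XAGE1B were listed for MOLM-13 only, so HL-60 had values for 3 of the 5 genes and MOLM-13 for all 5. Whether a gene that is not listed for a line was silent there was not analysed here.

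Germline genes are active in the cells that make eggs and sperm and are shut off elsewhere. In somatic cells many of their promoters carry dense methylation of the cytosine in CG dinucleotides (CpG), which DNMT1 and its partner UHRF1 copy to new DNA at each division. A Polycomb complex that contains E2F6, L3MBTL2, PCGF6 and the MGA and MAX pair holds many of the same genes silent. Those that tumours express again are called cancer-testis genes, and loss of DNA methylation is a known way to switch them on in cultured cancer cells.

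HL-60, a promyelocytic leukaemia line, and MOLM-13, a monocytic leukaemia line with a KMT2A fusion, are both acute myeloid leukaemia cells grown in culture. Each line received the solvent dimethyl sulfoxide (DMSO), decitabine (DAC, a cytidine analogue that is built into DNA and traps DNA methyltransferases) or NTX-301, the agent named in the title of the study. Exposure lasted 48 h, which the sample titles call day 2, and every one of the 6 groups held 3 replicates, so the study comprised 18 samples. The label states 30 nM in the case of HL-60 and 15 nM in the case of MOLM-13, in a wording that can be read for both drugs or for DAC alone, so the concentration of NTX-301 is uncertain and line and concentration cannot be told apart. The replicates are described as triplicate wells of each line, so the spread between them may be technical and the p-values below measure that spread only.

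The 250 bases before the most upstream RefSeq start site are shown for GCNA, MAGEB2 and XAGE1B. These are the 3 genes for which at least 1 drug group lay apart from DMSO, and their promoters differ in CpG content. Capitals mark each CpG, the 5′ end comes first, and sequence and coordinates are those of RefSeq on GRCh38.p14.
GCNA, chrX:71578187-71578436, plus strand: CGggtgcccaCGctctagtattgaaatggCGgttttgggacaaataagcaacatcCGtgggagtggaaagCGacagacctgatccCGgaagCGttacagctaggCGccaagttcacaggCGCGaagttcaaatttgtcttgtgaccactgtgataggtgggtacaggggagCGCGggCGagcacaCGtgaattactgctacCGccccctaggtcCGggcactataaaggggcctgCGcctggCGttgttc
MAGEB2, chrX:30215313-30215562, plus strand: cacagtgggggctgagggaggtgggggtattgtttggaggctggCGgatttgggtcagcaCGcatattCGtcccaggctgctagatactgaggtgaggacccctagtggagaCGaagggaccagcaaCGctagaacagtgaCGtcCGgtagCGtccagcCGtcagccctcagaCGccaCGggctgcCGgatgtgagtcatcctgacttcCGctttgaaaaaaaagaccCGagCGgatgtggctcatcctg
XAGE1B, chrX:52517069-52517318, minus strand: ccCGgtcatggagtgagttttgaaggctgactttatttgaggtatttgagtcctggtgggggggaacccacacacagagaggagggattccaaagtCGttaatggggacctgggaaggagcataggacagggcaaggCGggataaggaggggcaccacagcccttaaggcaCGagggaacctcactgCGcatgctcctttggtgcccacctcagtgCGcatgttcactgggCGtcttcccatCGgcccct
The GCNA window holds 18 CpG and the MAGEB2 window 15, against a median of 10 over the 27324 RefSeq promoters compared, taken by the same rule. The XAGE1B window holds 8 CpG, and 44.3% of promoters have fewer. SOHLH2 (chr13:36214557-36214806, minus strand) and SYCP3 (chr12:101739463-101739712, minus strand) had 20 and 19 CpG in their windows. Both strands of each window were searched for CACGTG, an E-box letter run that MGA and MAX can bind, and for TCCCGC, the core of E2F6-type sites. CACGTG was found in GCNA at position -67, counted back from the start site, and in 6.5% of all promoters. TCCCGC or its reverse complement was found in SYCP3 at -41 and in XAGE1B at -114, and in 23.4% of all promoters. Methylation and the start sites in use were not measured in these samples, so the windows describe the genes and not their state.

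Each file gave 1 normalized log2 value per gene, with 17110 HL-60 genes and 17475 MOLM-13 genes. The linear values summed to between 59800000 and 61500000 per HL-60 sample and to between 67900000 and 73600000 per MOLM-13 sample; these are sums on the normalized scale, and the read depth is unknown. Low values varied little: genes with a mean log2 value under 3 had a median range over the 9 samples of 0.020 in HL-60 and 0.027 in MOLM-13, against 0.208 and 0.257 for genes with a mean between 8 and 12. Genes with a mean between 4 and 6 lay between these, with a median range of 0.101 in HL-60 and 0.152 in MOLM-13. SYCP3, SOHLH2 and MAGEB2 of MOLM-13 belong to that class, where differences between groups can be smaller than at high values. Of 12 markers of these leukaemias the HL-60 tables held 9 and those of MOLM-13 held 11, with CD14 in neither. Of 16 markers of lymphoid, epithelial, stromal, endothelial and red cells and platelets, the HL-60 tables held KRT8 and PECAM1, 2 in all. Those of MOLM-13 held 6: KRT8, PECAM1, KRT18, COL1A1, HBB and HBA1. The summed linear value of these markers in HL-60 was 364.9 to 375.1 with DMSO, 400.4 to 407.6 with DAC and 452.0 to 480.2 with NTX-301. In MOLM-13 that sum was 9420.8 to 9719.2 with DMSO, 10937.4 to 11294.0 with DAC and 10140.3 to 11079.2 with NTX-301. PECAM1 alone made up 93.9% of the sum in HL-60 and 86.4% in MOLM-13. Both sums thus mostly follow that 1 gene and are not read as a share of other cell types. The summed leukaemia markers of HL-60, of which MPO made up 78.2%, were 533016.3 to 566268.8 with DMSO, 531476.5 to 532226.4 with DAC and 413697.5 to 423571.7 with NTX-301. In MOLM-13 their sum was higher with DAC (423025.4 to 432178.2) than with DMSO (341774.5 to 343602.2). With NTX-301 it was 337474.9 to 361877.1, which overlapped DMSO. The part of these shifts in the germline values was not tested.

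GCNA encodes a nuclear protein of germ cells with an acidic disordered region and, in many species, a protease-like domain, and protects the germ cell genome from DNA-protein crosslinks. In HL-60 its log2 value was 7.74, 7.71 and 7.66 in the 3 DMSO replicates, 9.28, 9.32 and 9.33 with DAC, and 7.77, 7.93 and 7.89 with NTX-301. The DAC samples stood far above the other 6, and the NTX-301 samples lay just above the DMSO samples without overlap. DAC was higher than DMSO by 1.61 (SE 0.045, 95% interval 1.51 to 1.71), or 3.05-fold on the linear scale, and 2 of the 17046 genes fitted had a larger positive difference in that comparison. GCNA was chosen by these values, so that place restates the choice. NTX-301 was higher than DMSO by 0.16 (95% interval 0.064 to 0.26; 0.091 after quantile normalization), and 1547 genes had a larger positive difference there. In RNA from whole cultures, a greater share of expressing cells and more RNA per expressing cell cannot be told apart.
In MOLM-13 GCNA was 7.58, 7.54 and 7.60 with DMSO, 7.73, 7.57 and 7.68 with DAC, and 7.61, 7.74 and 7.76 with NTX-301. The DAC samples overlapped those of DMSO, with a difference of 0.086 (95% interval -0.048 to 0.22). The NTX-301 samples all lay above DMSO, by 0.13 (95% interval -0.0026 to 0.26; 0.024 after quantile normalization).

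MAGEB2 is an X-linked member of the melanoma antigen family, whose proteins bind ubiquitin ligases and whose type I genes are silent outside the testis. The 3 DMSO replicates of HL-60 had log2 values of 8.76, 8.72 and 8.74. With DAC they were 9.37, 9.43 and 9.40, and with NTX-301 they were 8.80, 8.91 and 8.88. No group overlapped another, and their order (DMSO, NTX-301, DAC) was that of GCNA. DAC exceeded DMSO by 0.66 (SE 0.037, 95% interval 0.58 to 0.74; 1.58-fold on the linear scale), and NTX-301 exceeded it by 0.12 (95% interval 0.040 to 0.20; 0.059 after quantile normalization). By size of rise with DAC, MAGEB2 had rank 46 among the 17046 genes, which again restates the choice. In MOLM-13 the values were 5.20, 5.29 and 5.30 with DMSO, 5.27, 5.40 and 5.41 with DAC, and 5.23, 5.28 and 5.33 with NTX-301. All 3 groups overlapped there, and the differences from DMSO were 0.091 (95% interval -0.0075 to 0.19) for DAC and 0.011 (95% interval -0.087 to 0.11) for NTX-301.

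**Figure D1:**
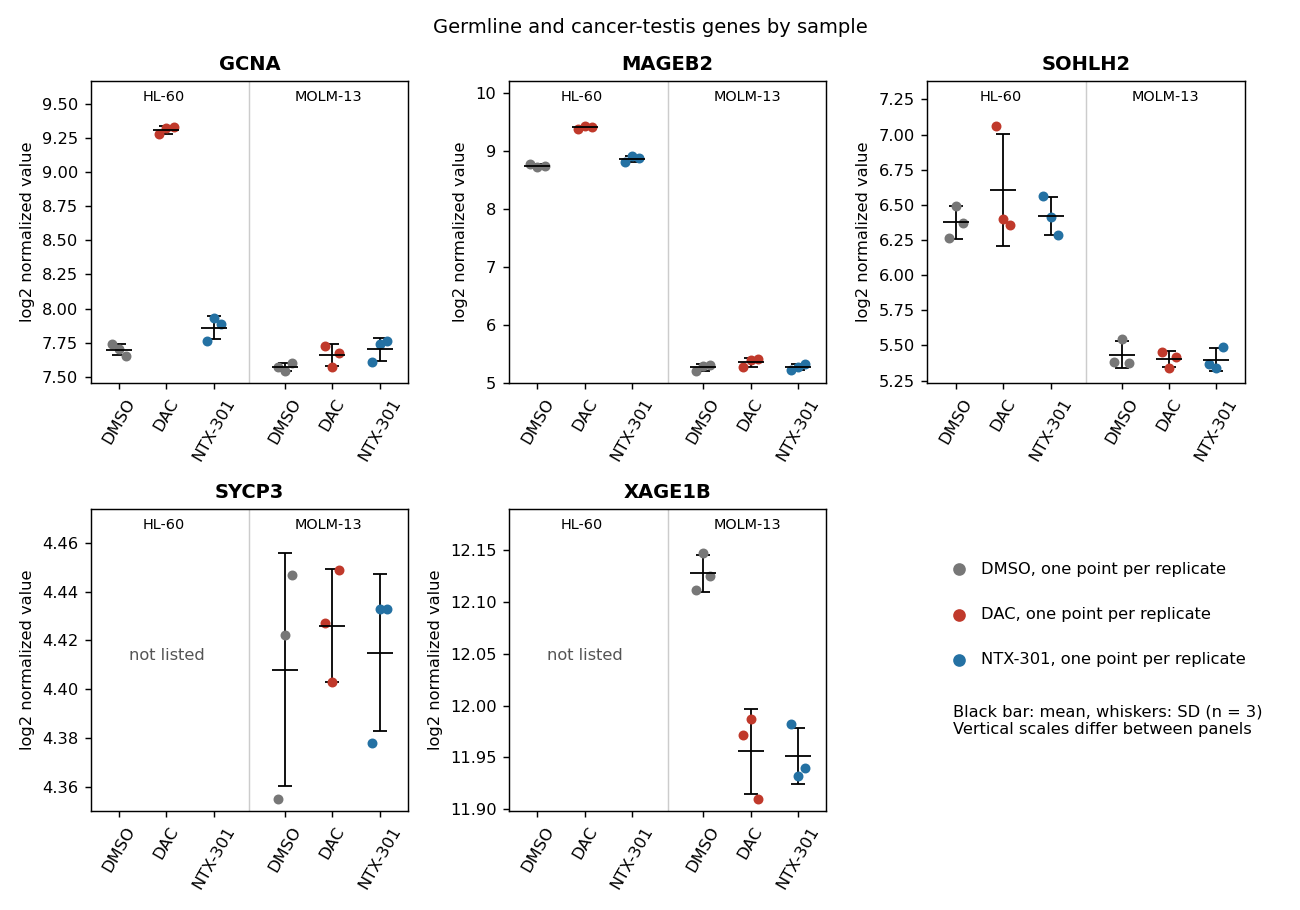
Log2 normalized value of each of the 5 genes (vertical axis, scale differing between panels) by treatment and line, with 1 point per replicate, a bar for the mean and whiskers for the SD (n = 3). GCNA and MAGEB2 stand apart with DAC in HL-60, at means of 9.31 and 9.40, and XAGE1B is lower with both drugs in MOLM-13.

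SOHLH2 encodes a helix-loop-helix transcription factor of early spermatogonia and oocytes. Its log2 values in HL-60 were 6.26, 6.49 and 6.37 with DMSO, 7.06, 6.40 and 6.36 with DAC, and 6.56, 6.41 and 6.29 with NTX-301. A single library, DAC replicate 1, stood above the other 8, and the groups overlapped. The DAC difference of 0.23 (95% interval -0.069 to 0.53) became 9e-04 without that library.
The gene shares its exons with CCDC169-SOHLH2 (Gene ID 100526761), a readthrough gene that joins it to the neighbouring CCDC169, so reads from the shared part can be assigned to either. In DAC replicate 1 the linear value of SOHLH2 was 133.7 and that of the readthrough gene 597.5, the lowest of the 9 HL-60 samples. SOHLH2 held 18.3% of the sum of both there, and 8.7% to 11.4% in the other 8. That sum, 731.2, was the lowest of the line, where the highest was 907.7. The split between the 2 genes therefore differed in the library that set the SOHLH2 value, while the sum was not higher. In MOLM-13 SOHLH2 lay between 5.34 and 5.54 in all 9 samples and held 13.5% to 15.1% of the sum. Its differences from DMSO were -0.032 for DAC and -0.036 for NTX-301, each with an SE of 0.054.

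**Figure D2:**
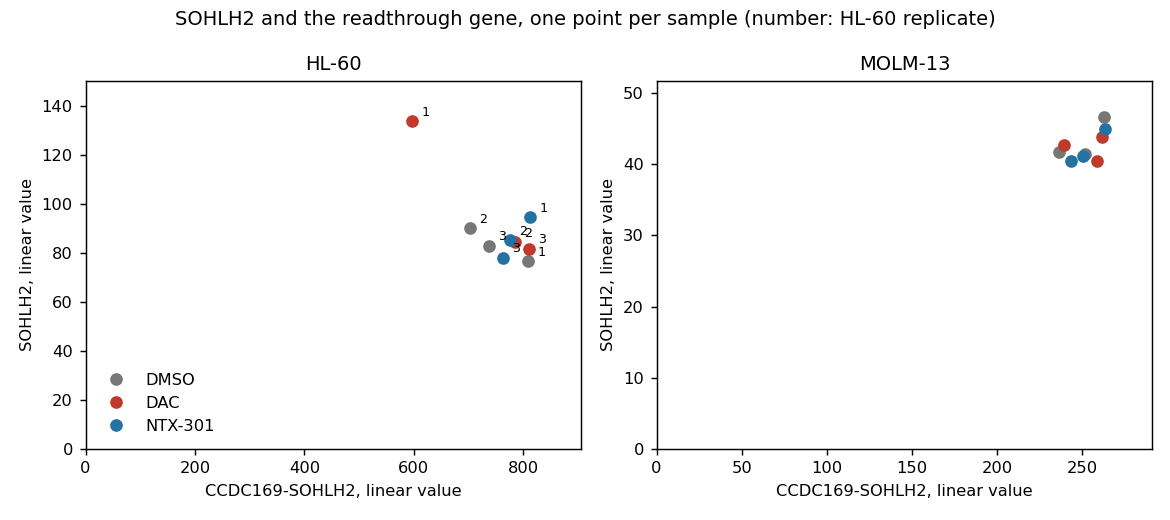
Linear normalized value of SOHLH2 (vertical axis) against that of the readthrough gene CCDC169-SOHLH2 (horizontal axis), 1 point per sample, coloured by treatment, with HL-60 points numbered by replicate. HL-60 DAC replicate 1 lies alone at 133.7 and 597.5, with more SOHLH2 and less readthrough than the other 8 samples of the line.

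SYCP3, a filament protein of the lateral element of the synaptonemal complex, along which chromosomes pair in meiosis, was listed for MOLM-13 alone. Its log2 value there was 4.36, 4.42 and 4.45 with DMSO, 4.43, 4.40 and 4.45 with DAC, and 4.38, 4.43 and 4.43 with NTX-301. The 3 groups overlapped. DAC differed from DMSO by 0.018 (95% interval -0.041 to 0.078) and NTX-301 by 0.0068. Genes with a mean log2 value between 4 and 6 had a median range of 0.152 over the 9 MOLM-13 samples.

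XAGE1B belongs to an X-linked family of cancer-testis antigens and is known as a target of immune responses in lung cancer. In MOLM-13 its log2 value was 12.11, 12.15 and 12.13 with DMSO, 11.97, 11.99 and 11.91 with DAC, and 11.98, 11.93 and 11.94 with NTX-301. Every treated sample lay below every DMSO sample, which held for no other of the 5 genes. The differences were -0.17 for DAC (SE 0.028, 95% interval -0.23 to -0.11) and -0.18 for NTX-301 (95% interval -0.24 to -0.12; -0.11 after quantile normalization), or 0.888 and 0.885 of the DMSO mean on the linear scale. XAGE1A (Gene ID 653220), a copy of the gene in opposite orientation nearby, had values within 0.0003 to 0.0085 of XAGE1B in each of the 9 samples. The promoter windows of both copies share a run of 237 identical bases. Reads of the copies can be exchanged, so they are treated as a single measurement and XAGE1A is no second observation.

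The direct comparison of the drugs is 1 pair per line. In HL-60 the log2 difference of NTX-301 from DAC was -1.45 for GCNA (95% interval -1.54 to -1.35) and -0.54 for MAGEB2 (95% interval -0.62 to -0.46), with no overlap of the groups for either. For SOHLH2 the difference was -0.18 (95% interval -0.48 to 0.11), and 0.044 without DAC replicate 1. In MOLM-13 the groups overlapped for all 5 genes. The interval for XAGE1B was -0.067 to 0.056 around a difference of -0.0051, and that for SYCP3 was -0.071 to 0.048 around -0.012. GCNA differed by 0.045 and MAGEB2 by -0.080 there. Between lines, the DAC difference of MOLM-13 less that of HL-60 was -1.52 for GCNA (SE 0.075), -0.57 for MAGEB2 (SE 0.064) and -0.26 for SOHLH2 (SE 0.18). The same subtraction for NTX-301 gave -0.031, -0.11 and -0.081.
Separation of groups was common in these data. In HL-60, groups did not overlap for 38.5% of genes with DAC against DMSO, 47.2% with NTX-301 against DMSO and 44.4% with NTX-301 against DAC, and for 2 of the 3 listed genes in each. In MOLM-13 the shares were 47.9%, 55.8% and 27.3% of genes, against 1, 2 and 0 of the 5. GCNA and MAGEB2 under DAC in HL-60 thus stood out by the size of the difference, which chose them, and not by the absence of overlap.

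**Figure D3:**
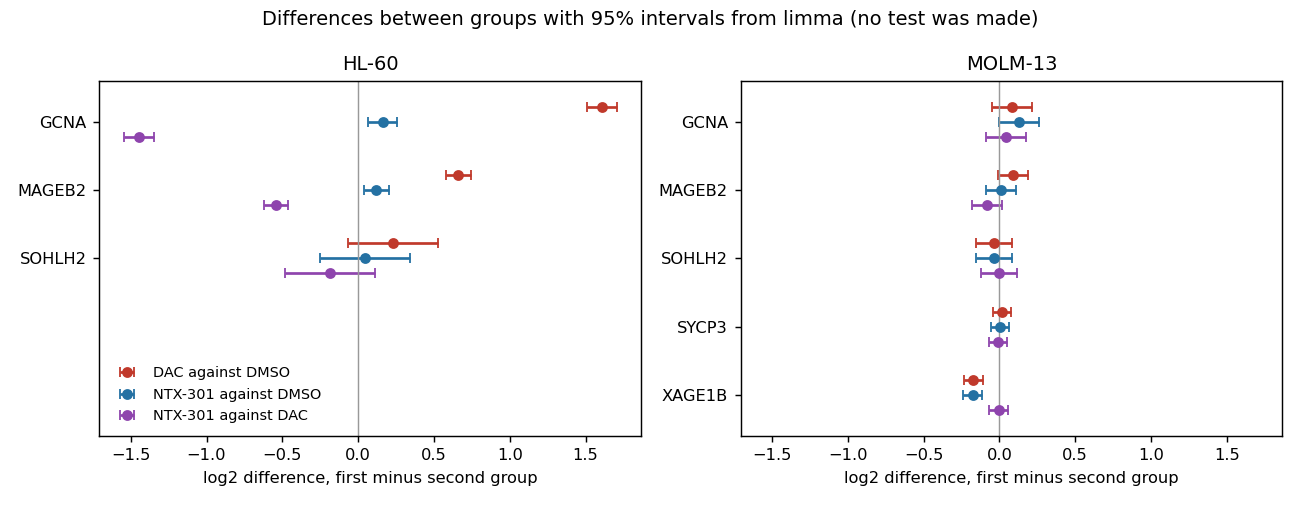
Log2 difference (horizontal axis) for each listed gene in HL-60 (left) and MOLM-13 (right), as points with 95% intervals, for DAC and NTX-301 against DMSO and for NTX-301 against DAC. GCNA at 1.61 and MAGEB2 at 0.66 with DAC in HL-60 lie far to the right of their MOLM-13 values of 0.086 and 0.091.

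The genes most like GCNA and MAGEB2 were sought among all tested HL-60 genes by the root mean square difference over the 9 samples after each gene's own mean was subtracted. The nearest to GCNA were CLC (0.170), which encodes galectin-10 of eosinophils and basophils, the antisense RNA TTN-AS1 (0.273) and the zinc finger gene ZNF648 (0.282). The mean log2 value of CLC was 7.32 with DMSO, 8.64 with DAC and 7.51 with NTX-301. The nearest to MAGEB2 were LINC00958 (0.052), the homeobox gene OTP (0.059) and LOC105370956 (0.061). OTP, a factor of hypothalamic neurons, was 5.88, 6.41 and 5.94 in the same order. SOHLH2, SYCP3 and XAGE1B had group means spanning under 0.25 and were not matched.

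The wider germ line programme was read from 7 lists of 246 genes. Most had no value: 180 were in neither line's tables, 50 were in those of HL-60, 61 in those of MOLM-13 and 45 in both. Of 25 MAGE cancer-testis genes, MAGEB2 alone was listed, in both lines. Of 62 other X-linked cancer-testis genes, 6 were listed, all for MOLM-13 alone (XAGE1A, XAGE1B and 4 CT45A copies). Among meiotic and piRNA genes, MEIOB, MCMDC2, MEIOC and TDRD9 were listed for MOLM-13 alone and GTSF1 for HL-60 alone. PRAME, a cancer-testis gene much studied in leukaemia, was listed for HL-60 alone. The tests below leave out the 5 genes and cover the 47 others tested in HL-60 and 56 in MOLM-13, by limma with Benjamini-Hochberg adjustment over all genes of the line and a threshold of 0.05.

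In HL-60, 12 of 47 germline genes changed with DAC, 8 higher and 4 lower, where 24.2% of all genes did (11.6% higher and 12.6% lower). Their median log2 difference was 0.015, against 6e-04 over all genes. The strongest rise was that of PIWIL4, which loads piRNAs in the nucleus of male germ cells to direct methylation to transposons. PIWIL4 had values of 10.94, 10.90 and 10.94 with DMSO and 11.47, 11.39 and 11.46 with DAC, a rise of 0.51 (SE 0.031, adjusted p = 4.46e-08). TEX15, a partner of that pathway that is also needed for meiotic recombination, rose by 0.32 (adjusted p = 4.12e-05), and MSH5, of the meiotic crossover complex, rose by 0.15 (adjusted p = 0.00318). MLH3, the crossover nuclease subunit, and PLD6, a mitochondrial nuclease of piRNA biogenesis, each fell by 0.20 on the log2 scale. Of 7 listed genes of the meiotic axis other than SYCP3, only HORMAD1 passed the test, with a rise of 0.074, and 0 of 16 autosomal cancer-testis genes did (3 at an unadjusted limma p under 0.05, and 1 after centring).
With NTX-301, 21 of the 47 changed in HL-60, 12 higher and 9 lower, where 37.4% of all genes did (18.3% higher and 19.2% lower), and their median difference was 0.012. After centring each sample on its median the split was 8 higher and 12 lower. Of 12 recombination genes 6 were higher and 1 lower (4 and 2 after centring, 5 and 2 after quantile normalization), among them PSMC3IP, a cofactor of strand exchange, at 0.28 (adjusted p = 0.000312). Of 6 genes of the piRNA pathway 1 was higher and 4 were lower, led by PLD6 at -0.39 (adjusted p = 3.3e-08) and the Tudor-domain gene TDRD7 at -0.35 (adjusted p = 1.28e-06). PRAME rose by 0.18 (adjusted p = 0.000272).
PIWIL4 had values of 10.78, 10.84 and 10.85 with NTX-301, below those of DMSO, a difference of -0.10 (adjusted p = 0.0166). That call was lost without DMSO replicate 3 (-0.096, adjusted p = 0.0525) or without NTX-301 replicate 1 (-0.084, adjusted p = 0.0793). Set directly against DAC, NTX-301 was lower by 0.62 for PIWIL4 (log2 difference -0.62, SE 0.031, adjusted p = 9.43e-09) and by 0.38 for TDRD7 (log2 difference -0.38, adjusted p = 8.78e-07). In that comparison 13 of 47 germline genes passed the test, 4 higher and 9 lower, where 30.4% of all genes did (15.4% higher and 15% lower), and after centring the split was 3 and 15.

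In MOLM-13, 21 of 56 germline genes changed with DAC, 6 higher and 15 lower, where 36.6% of all genes did (15.4% higher and 21.2% lower), with a median difference of -0.044 against 0.0013 over all genes. One of the 15 is XAGE1A, which repeats the values that chose XAGE1B, and without it the count is 20 of 55, 6 higher and 14 lower. The strongest rise was that of TDRD9, a helicase of the piRNA pathway. TDRD9 had values of 7.59, 7.66 and 7.54 with DMSO and 8.10, 8.27 and 8.14 with DAC, a rise of 0.58 (SE 0.059, adjusted p = 2.38e-05). With NTX-301 it was 8.07, 8.12 and 8.07, a rise of 0.49 (adjusted p = 4.4e-05). TSGA10, a gene of the sperm tail, rose by 0.41 with DAC and 0.44 with NTX-301, and PIWIL4 rose by 0.25 and 0.21.
Other germline genes fell. TEX15 was 13.49, 13.55 and 13.54 with DMSO, 13.18, 13.13 and 13.13 with DAC and 13.18, 13.17 and 13.14 with NTX-301. The 6 treated samples all lay below DMSO, by -0.38 (adjusted p = 1.48e-06) and -0.37 (adjusted p = 1.33e-06). MND1, the partner of PSMC3IP, fell by 0.36 and 0.39 on the log2 scale, PLD6 by 0.37 and 0.43, and the transcription factor subunit TAF4B by 0.23 and 0.25. Of 17 autosomal cancer-testis genes tested, 1 was higher and 6 were lower with either drug, where 21.2% and 24.8% of all genes were lower. After centring the split was 1 and 7 with DAC and 1 and 8 with NTX-301. After quantile normalization the split was 1 and 4 with DAC and 2 and 6 with NTX-301. Among the lower genes were ATAD2 (-0.24 and -0.28) and OIP5 (-0.28 and -0.40). Whether genes of that list are silent in other somatic cells was not analysed. With NTX-301, 26 of 56 passed the test, 5 higher and 21 lower, where 45.1% of all genes did (20.3% higher and 24.8% lower), with a median of -0.039 against 0.0034. Without XAGE1A that count is 25 of 55, 5 higher and 20 lower. The other X-linked cancer-testis genes tested were 4 CT45A copies, whose near-identical sequence leaves the assignment of reads uncertain. Of these, 3 were lower with NTX-301, and CT45A3 had a difference of -0.14 (adjusted p = 0.00844). The call of CT45A1 was lost without DMSO replicate 1 (-0.13, adjusted p = 0.0546) or 3 (-0.14, adjusted p = 0.054), and that of CT45A5 without DMSO replicate 2 (-0.12, adjusted p = 0.0537) or NTX-301 replicate 2 (-0.12, adjusted p = 0.0573).
The drugs differed from each other in MOLM-13 for 1 of 56 germline genes, where 7.42% of all genes differed (3.01% higher and 4.41% lower with NTX-301). It was NANOS1, an RNA-binding repressor of germ cells, at -0.25 (adjusted p = 0.0343). That call was lost when DAC replicate 1, 2 or 3 or NTX-301 replicate 2 or 3 was left out, with adjusted p-values of 0.0635, 0.0915, 0.0726, 0.123 and 0.114 and differences between -0.26 and -0.23. It was lost as well with the replicate number as a block (adjusted p = 0.0645). For PIWIL4 the drugs differed by -0.044 there (adjusted p = 0.418).

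**Figure D4:**
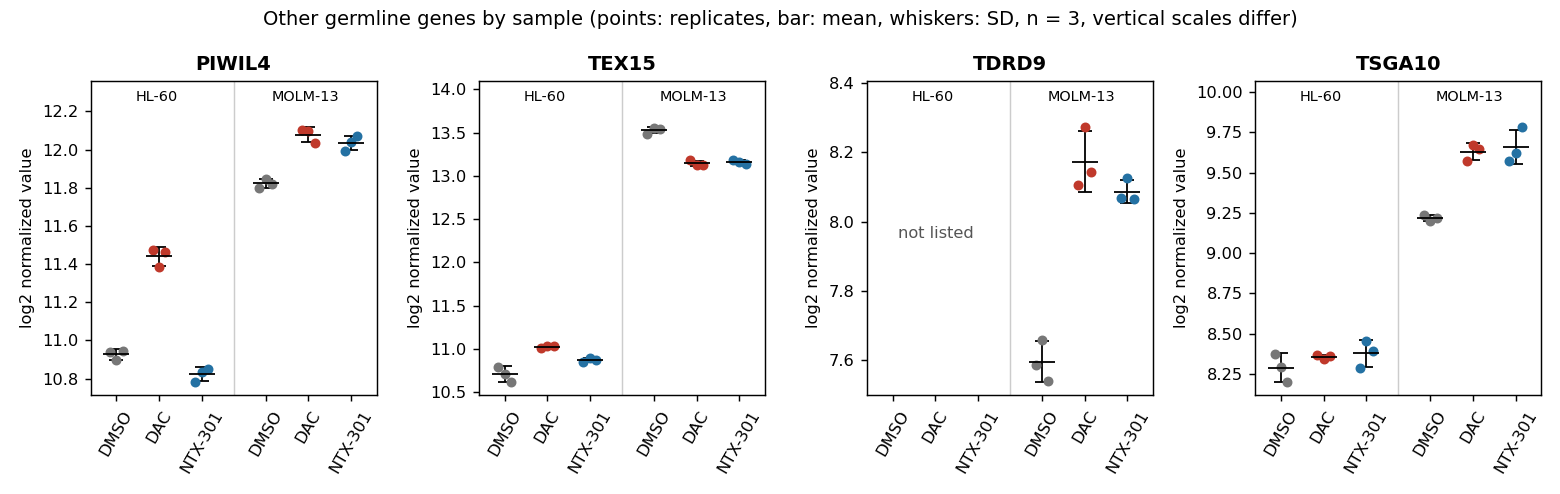
Log2 normalized value (vertical axis, scale differing between panels) of PIWIL4, TEX15, TDRD9 and TSGA10 by treatment and line, with 1 point per replicate, a bar for the mean and whiskers for the SD (n = 3). TEX15 is higher with DAC in HL-60, by 0.32, and lower with DAC in MOLM-13, by 0.38 on the log2 scale.

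**Figure D5:**
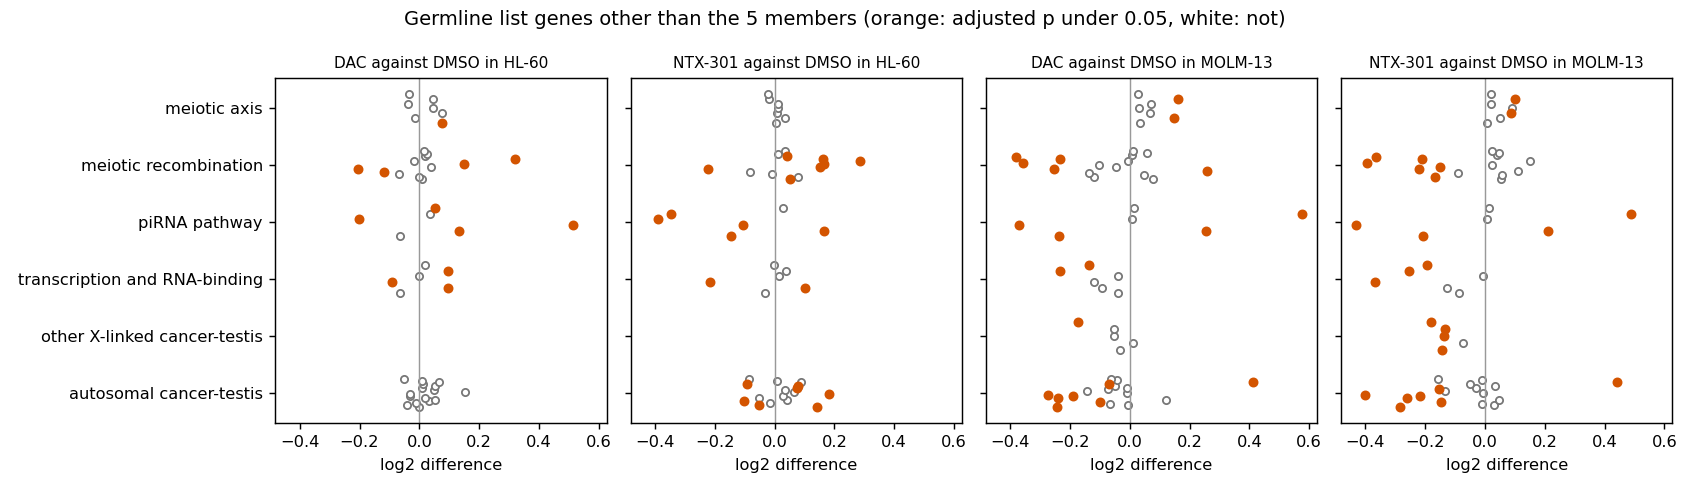
Log2 difference (horizontal axis) of each germline gene other than the 5, by list (vertical axis), for each drug against DMSO in each line, with filled points for an adjusted p under 0.05. In MOLM-13 most filled points lie left of 0, 15 of 21 with DAC and 21 of 26 with NTX-301, XAGE1A included.

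The change itself was compared between lines for the 42 germline genes tested in both. With DAC, 18 differed, 2 more positive and 16 more negative in MOLM-13, where 30% of all 15474 shared genes differed (12.1% more positive and 17.9% more negative). With NTX-301, 18 differed as well, 6 more positive and 12 more negative, where 40% of all genes did (17.6% and 22.4%). TEX15 had the greatest difference of the 42 with DAC, at -0.70 (SE 0.047, adjusted p = 4.31e-09). Lines have separate gene lists, may have been normalized apart, and differ in the stated concentration.

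The machinery that silences germline genes was listed in full, 29 of 29 genes in both lines. In HL-60 13 of 29 changed with DAC, 6 higher and 7 lower, where 24.2% of all genes changed, and 15 changed with NTX-301, 8 higher and 7 lower (4 and 12 after centring, 10 and 5 after quantile normalization), where 37.4% of all genes did. DNMT3B, which methylates DNA de novo, went up by 0.56 on the log2 scale after NTX-301 (SE 0.046, adjusted p = 4.26e-07), while the Polycomb subunits L3MBTL2 and E2F6 fell by 0.25 and 0.22 on the log2 scale. EHMT1, a histone H3 lysine 9 methyltransferase, fell by 0.23 with DAC. In MOLM-13 18 of 29 fell with DAC and 19 of 29 with NTX-301, and none rose on the deposited scale, where 21.2% and 24.8% of all genes were lower. After centring 0 rose and 21 fell with DAC, and 0 rose and 23 fell with NTX-301. After quantile normalization 1 rose and 11 fell with DAC, and 6 rose and 14 fell with NTX-301. UHRF1 fell there by 0.33 and 0.51, and PCGF6 by 0.36 with NTX-301 (adjusted p = 1.02e-05). DNMT1 had differences of -0.18 and -0.26, which became -0.080 and -0.13 after quantile normalization. The shares over all genes, here, below and in the germline counts above, include genes with low values, which varied little on this scale. Genes of like level were not compared.
Repair of DNA-protein crosslinks is the process in which GCNA is known to act, and DAC forms such crosslinks with DNMT1. Of 13 other genes of that repair tested in HL-60, 2 rose and 0 fell with DAC. Of all genes 24.2% changed there, 11.6% higher and 12.6% lower. With NTX-301, 2 rose and 2 fell (1 and 3 after centring, 3 and 1 after quantile normalization), where 37.4% of all genes changed. FAM111A, a protease at replication forks, was up by 0.52 after NTX-301 (SE 0.022, adjusted p = 5.54e-10) and by 0.15 after DAC (adjusted p = 0.000278). In MOLM-13 9 of 14 fell with DAC and 12 of 14 with NTX-301, where 21.2% and 24.8% of all genes were lower. The falls numbered 11 and 13 after centring, and 6 and 9 after quantile normalization. TDP1, which clears crosslinks from DNA ends, fell by 0.23 and 0.22 on the log2 scale. Of 6 broadly expressed relatives of MAGEB2 tested in each line, 2 were higher with either drug in HL-60. Of all genes 11.6% were higher with DAC there and 18.3% with NTX-301. In MOLM-13 2 of the 6 were lower with DAC (4 after centring or quantile normalization), where 21.2% of all genes were lower. With NTX-301 1 was higher and 2 were lower there (0 and 3 after either scaling). The shares over all genes were 20.3% higher and 24.8% lower. In HL-60, MAGED2 rose by 0.13 with either drug, and in MOLM-13 NSMCE3, a subunit of the SMC5-SMC6 complex, fell by 0.17 and 0.20.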

How the data were processed

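The authors deposited 1 normalized log2 value per gene and sample, per the file headers, which do not name the method. The submitters' processing notes list FastQC, Trimmomatic 0.38, HISAT2, StringTie and hg19; any scaling by gene length is not given in the sources used here. RefSeq on GRCh38.p14 served for promoters and names only. Samples were grouped by their titles. A gene was kept where 3 or more samples reached a linear value of 1, which left 17046 in HL-60 (64 removed) and all 17475 in MOLM-13. limma 3.58.1 in R 4.3.3 (lmFit, trended eBayes, two-sided tests) was fitted to the 9 samples of a line, with 6 residual degrees of freedom, or to all 18 for differences between lines, and tested on simulated data. Read depth is unknown, so precision rests on replicates. The 5 genes, the lists and the tests were chosen with earlier results of these data known. Of the 246 germline list genes, 244 matched RefSeq; C19orf57 and C11orf80 of the files are BRME1 and TOP6BL. Named genes were the 5 genes, the 2 highest and 2 lowest passing the test in each list and comparison with DMSO, up to 4 germline genes from each direct comparison, and the 3 genes most like each gene whose group means spanned at least 0.25; DNMT1 and CT45A3 were added with their values known. Alternatives were centring, quantile normalization, no trend, no filter, a mean linear value of at least 10, a replicate block and each sample left out. The splits by list under other scalings and the counts without XAGE1A were added after seeing the data.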

Additional observations from a re-analysis of the deposited data

Results flagged for a closer look

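Drug effects on some germline genes, as on many other genes, differed between the lines by the test of the difference itself (limma, MOLM-13 minus HL-60, 3 replicates a group). With DAC, 18 of 42 genes differed, where 30% of all genes did. With NTX-301, 18 of 42 differed, a share close to the 40% of all genes that did. TEX15 differed by -0.70 with DAC and by -0.53 with NTX-301 (adjusted p = 6.91e-08), with a rise in HL-60 and a fall in MOLM-13 for both drugs. PIWIL4 differed by -0.26 with DAC (adjusted p = 0.000144), where it rose in both lines, and by 0.32 with NTX-301 (adjusted p = 9.98e-06), where it rose in MOLM-13 and had a difference of -0.10 in HL-60. TSGA10 differed by 0.35 with each drug (adjusted p = 0.00246 and 0.00144), and MEI1, a gene of meiotic break formation, by 0.38 with DAC (adjusted p = 0.000215). PSMC3IP differed by -0.49 with NTX-301 (adjusted p = 9.9e-06). Line, stated concentration and any separate normalization cannot be told apart in these differences.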

How the results depend on the processing

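Of 1467 alternative values for 93 named gene differences, 1418 kept direction and call, 49 lost the call and none reversed. Changing the trend, the filter or the block leaves the difference itself as it was. Leaving out a sample of a group outside the comparison does so too. Those alternatives can lose a call but cannot reverse a direction. Of 402 alternatives for 32 counts and differences of the 5 genes, 388 stayed within their limits. The limit of a count was a fixed ratio to its main value. That of a difference was the gene's pooled within-group SD in the line, which is wide for SOHLH2 in HL-60, as it includes DAC replicate 1. SOHLH2 thus stayed within the limit with DAC while moving from 0.23 to 9e-04, and between the drugs while moving from -0.18 to 0.044. Quantile normalization moved GCNA with NTX-301 in HL-60 to 0.091, MAGEB2 with NTX-301 to 0.059 and MAGEB2 between the drugs to -0.58. In MOLM-13 it moved GCNA to -0.0035 with DAC and 0.024 with NTX-301, and XAGE1B to -0.12 and -0.11. Centring on the sample median moved SYCP3 with DAC to -0.019 and XAGE1B with DAC to -0.21. The cause was not tested. The count of germline genes differing between the drugs in MOLM-13 ranged from 0 to 1 as single samples were left out, and was 0 with the replicate number as a block. With that block the other counts were 12, 20 and 14 for HL-60, 20 and 26 for MOLM-13, and 16 and 18 between lines. Same-numbered samples did not deviate together (over 9 pairs each, r was -0.057 to 0.118 within HL-60 and -0.16 to 0.11 within MOLM-13). For pairs of unlike number r was -0.115 to 0.106 and -0.12 to 0.159. With 3 replicates a group, these values cannot show whether same-numbered wells were handled together, so pairing remains unknown. Depth was unknown, and genes with low values vary less on the deposited scale. For SYCP3, SOHLH2 and MAGEB2 in MOLM-13, with means between 4 and 6, the median range of that class was 0.152.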
